A study of Mus musculus with 9 samples.

Results

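The de novo lipogenesis genes are 10 genes, Fasn, Acaca, Acacb, Acly, Acss2, Thrsp, Srebf1, Mlxipl, Me1 and Gpam, whose products turn surplus carbohydrate into fatty acid or switch that route on. They were taken by name as every probe set of the array that carries 1 of these symbols alone, which gave 23 probe sets for 10 of the 18194 genes with a symbol of their own. All 10 genes entered the test, among 13888 genes. RNA came from pieces of liver of untreated male C57Bl6 mice, 12 months old and fed regular chow, and each piece was read on 1 array. Wild-type liver (3 pieces) was labelled as normal with mild steatosis. Adjacent-labelled liver (3 pieces) and tumor (3 pieces) carried the genotype SART1+/-, the former labelled as cellular alteration and the latter as hepatocellular carcinoma, and both with severe steatosis. Each group is 1 animal cut into 3 pieces, and 1 animal gave both the tumor and the adjacent-labelled pieces, so the p-values measure the spread among pieces of a liver. Genotype, animal and the degree of steatosis therefore cannot be told apart here. The sources used here do not say how Sart1 was altered.

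In de novo lipogenesis, citrate exported from the mitochondrion is cut to acetyl-CoA by Acly, while Acss2 makes acetyl-CoA from acetate. The carboxylases Acaca and Acacb turn acetyl-CoA into malonyl-CoA, and Fasn, using NADPH that Me1 helps to supply, builds palmitate from it, which Gpam begins to join to glycerol. In liver the route follows insulin through the transcription factor SREBP-1c (Srebf1) and glucose through ChREBP (Mlxipl), and Thrsp, also called Spot 14, is a small protein that follows both and is known for its link to lipogenic capacity. Hepatic steatosis is the storage of triglyceride in liver cells, to which this route, fatty acids arriving from outside and slower disposal can each contribute.

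Values are log2 expression levels after array normalization, so a difference of 1 is 2-fold. A level cannot be set against that of another gene, because each probe set has its own efficiency. In these bulk pieces, fewer cells of a type and less RNA per cell cannot be told apart. Arrays of 1 group correlated at r = 0.996 to 0.998, and array medians lay between 5.76 and 5.81. Of the 7 hepatocyte markers, Alb, Apoa1, Apob, Fgb and Ttr were above 13 on the log2 scale in every piece. Against wild-type liver, Tat was lower by log2 differences of -2.55 in tumor and -1.75 in adjacent-labelled liver. In the same order, Cps1 was lower by -1.37 and -0.58 and Ttr by -0.31 and -0.28. Fgb was at 0.06 and -0.15, Alb at 0.002 and 0.04, Apoa1 at 0.15 and 0.002 and Apob at 0.15 and -0.10. The Sart1 level was 7.74 ± 0.03 in tumor, 8.37 ± 0.03 in adjacent-labelled pieces and 8.34 ± 0.02 in wild-type pieces (SD, n = 3), so it did not separate the adjacent-labelled pieces from wild type (log2 difference 0.03, limma adjusted p = 0.678).

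Most of the set was lower in the pieces labelled as severely steatotic than in those labelled as mildly so, and the size of that difference ran from 1.06-fold in Gpam to 5.22-fold in Thrsp. A gene was called when its limma adjusted p, over all 13888 genes, was under 0.05 and its difference at least 2-fold. Between tumor and wild-type liver, Acacb, Acss2, Thrsp and Me1 fell, which is 4 of 10 genes called lower and 0 called higher, where 4.59% of all genes tested were called lower and 8.41% higher. With no limit on size, 9 of 10 were lower at an adjusted p under 0.05, against 30.2% of all genes, and 0 were higher, also at an unadjusted p under 0.05. The arrays of 8 of the 10 genes lay wholly below those of wild-type liver, as did those of 33.2% of all genes. The median difference of the 10 genes was -0.76, against -0.01 for all genes tested.

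Between adjacent-labelled and wild-type liver, Acacb, Acly, Acss2 and Thrsp fell, again 4 of 10 called lower and 0 higher, where 3.22% of all genes were called lower and 8.29% higher. With no limit on size, 7 of 10 were lower (28.9% of all genes) and 0 higher, also at an unadjusted p under 0.05. The adjacent-labelled arrays of 6 of the 10 genes lay wholly below those of wild-type liver, as did those of 33% of all genes. The median of the 10 was -0.82, against -0.01 for all genes. Both comparisons use the same 3 wild-type arrays, so their shared direction is not 2 separate observations.

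**Figure D1:**
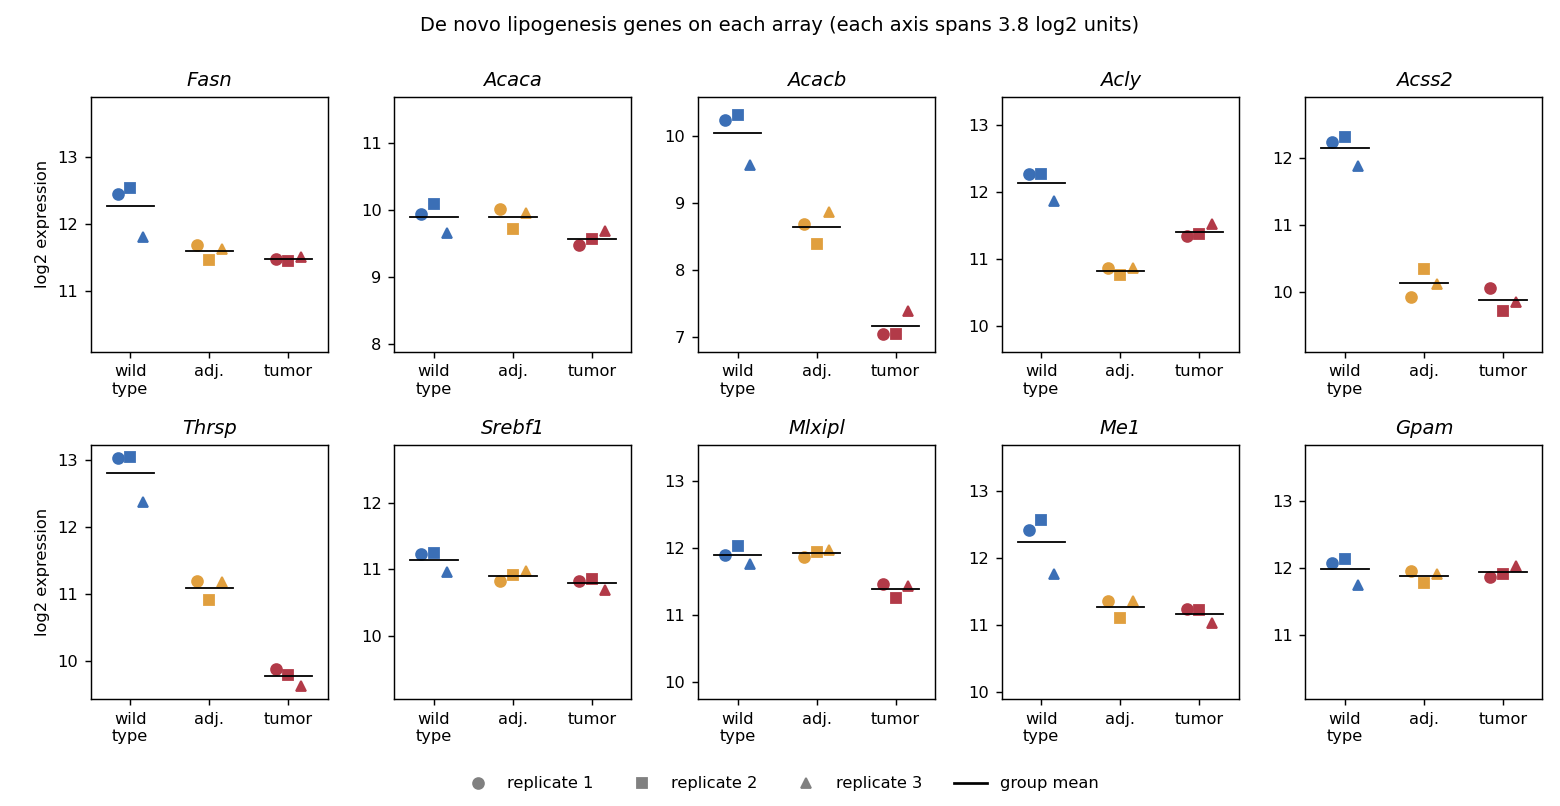
Log2 expression of the 10 genes (y axis; every panel spans the same number of log2 units) in wild-type liver, adjacent-labelled liver (adj.) and tumor (x axis), 1 point per array with its replicate number as the symbol and the group mean as a line. Thrsp and Acacb step down from wild type to adjacent-labelled liver to tumor, Acly is lowest in adjacent-labelled liver, Gpam stays level, and wild-type replicate 3 (blue triangle) is the lowest wild-type array in every panel.

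Thrsp had the steepest series of levels. The wild-type pieces read 13.02, 13.04 and 12.38, the adjacent-labelled pieces 11.19, 10.90 and 11.18, and the tumor pieces 9.88, 9.79 and 9.62. The 3 groups did not overlap, and each wild-type piece lay above each piece with severe steatosis by at least 1.186. Tumor was 8.26-fold below wild-type liver (log2 difference -3.05, SE 0.16, limma adjusted p = 7e-08) and adjacent-labelled liver 3.30-fold below it (-1.72, SE 0.16, adjusted p = 6.26e-06). Another probe set of Thrsp, 1422973_a_at, gave -3.22 and -1.91 in the same order. The dimmer 1444166_at gave -0.46 and -0.45, under the 2-fold limit.

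Acacb, the carboxylase of the outer mitochondrial membrane whose malonyl-CoA holds back fatty acid import for oxidation, followed the same steps. It read 10.25, 10.33 and 9.57 in the wild-type pieces, 8.69, 8.40 and 8.87 in the adjacent-labelled pieces and 7.05, 7.05 and 7.39 in tumor, with no overlap between any of the groups. The tumor was 7.40-fold below wild-type liver (log2 difference -2.89, SE 0.19, limma adjusted p = 3.66e-07) and adjacent-labelled liver 2.63-fold below it (-1.40, SE 0.19, adjusted p = 0.000109). Its other probe set, 1445754_at, passed an array's 40th percentile on 1 array only and gave -0.17 and -0.12.

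Acaca, the cytosolic carboxylase that supplies Fasn, behaved otherwise. It read 9.94, 10.09 and 9.65 in the wild-type pieces, 10.02, 9.71 and 9.95 in the adjacent-labelled pieces and 9.48, 9.56 and 9.68 in tumor. The adjacent-labelled pieces lay within the wild-type range, with a difference of 0.0004 (95% confidence interval -0.26 to 0.26), and 1 tumor piece overlapped wild type. Tumor was lower by a log2 difference of -0.32 (SE 0.12, limma adjusted p = 0.0337), under the 2-fold limit, and the second probe set, 1427595_at, gave 0.04 (adjusted p = 0.804).

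Acss2, which activates acetate, was about equally low in both kinds of tissue with severe steatosis. Wild-type pieces read 12.24, 12.31 and 11.88, adjacent-labelled pieces 9.93, 10.35 and 10.12, and tumor pieces 10.07, 9.71 and 9.85. The gap of 1.54 between the lowest wild-type piece and the highest of the other 6 exceeded the wild-type range of 0.43. The tumor was 4.83-fold below wild-type liver (log2 difference -2.27, SE 0.14, limma adjusted p = 1.78e-07) and adjacent-labelled liver 4.04-fold below it (-2.01, SE 0.14, adjusted p = 5.45e-07). Probe set 1422478_a_at gave -2.12 and -2.02, and the dimmer 1446542_at gave -0.46 and -0.66.

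The 3 lipogenesis genes called lower in both tissues are the ones whose upstream sequence is shown, so that the letters next to their starts can be read beside these values. Each run is the 250 bases upstream of the annotated start, from RefSeq on GRCm38.p6, read 5′ to 3′ on the gene's own strand, and capitals mark matches on either strand to the letters CCAAT (the NF-Y box, ATTGG on the other strand) and GGGCGG (the Sp1 box, CCGCCC on the other strand). The windows are chr5:114165268-114165517 on the + strand for Acacb, chr2:155517793-155518042 on the + strand for Acss2 and chr7:97417551-97417800 on the - strand for Thrsp.
Acacb: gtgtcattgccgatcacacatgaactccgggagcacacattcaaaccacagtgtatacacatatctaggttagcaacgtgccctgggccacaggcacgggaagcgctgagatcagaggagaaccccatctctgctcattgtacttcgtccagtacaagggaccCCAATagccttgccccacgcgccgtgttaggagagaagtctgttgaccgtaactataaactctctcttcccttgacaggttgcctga
Acss2: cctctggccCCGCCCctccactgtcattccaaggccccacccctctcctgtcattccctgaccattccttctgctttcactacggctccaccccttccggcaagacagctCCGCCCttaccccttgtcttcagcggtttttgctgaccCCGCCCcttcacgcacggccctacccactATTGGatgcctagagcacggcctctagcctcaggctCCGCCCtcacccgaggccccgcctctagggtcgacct
Thrsp: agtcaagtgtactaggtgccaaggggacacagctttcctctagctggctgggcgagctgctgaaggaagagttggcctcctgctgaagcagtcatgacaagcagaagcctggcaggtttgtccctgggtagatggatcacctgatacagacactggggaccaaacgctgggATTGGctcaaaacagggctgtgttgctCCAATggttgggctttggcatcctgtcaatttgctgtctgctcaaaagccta
Acacb held 1 CCAAT match, 87 bases upstream of the start (counted to the 5′ end of the match), and Thrsp held 2, 79 and 52 bases upstream. Acss2 held 1 such match and 4 of the Sp1 box. Over 15 windows upstream of annotated starts of the 10 genes, 9 held CCAAT and 7 held GGGCGG, where 33.8% and 32.7% of 32851 windows of the same length did. The sterol regulatory element core TCACNCCAC was in 1 of the 15 windows and the E-box CACGTG in 1, both upstream of different starts of Mlxipl, and in 1.05% and 6.02% of all windows. A match describes the letters alone, and no match in these windows says nothing of sites elsewhere.

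Acly fell in adjacent-labelled liver and less so in tumor. It read 12.27, 12.28 and 11.86 in the wild-type pieces, 10.86, 10.77 and 10.87 in the adjacent-labelled pieces and 11.34, 11.38 and 11.52 in tumor, and no 2 groups overlapped. Adjacent-labelled liver was 2.47-fold below wild-type liver (log2 difference -1.31, SE 0.11, limma adjusted p = 2.02e-06). Tumor was 1.65-fold below it (-0.73, SE 0.11, adjusted p = 0.000154), under the 2-fold limit. Probe sets 1425326_at and 1439459_x_at gave -1.43 and -1.33 for adjacent-labelled liver and -0.80 and -0.72 for tumor. The other 3 probe sets of Acly never rose above the 40th percentile of an array.

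Me1, the cytosolic malic enzyme, read 12.42, 12.56 and 11.76 in the wild-type pieces, 11.35, 11.11 and 11.36 in the adjacent-labelled pieces and 11.24, 11.22 and 11.03 in tumor. All 6 pieces with severe steatosis lay below the 3 wild-type pieces, by a gap of 0.40 against a wild-type range of 0.80. Both differences sat near the 2-fold limit, at a log2 difference of -1.08 in tumor (SE 0.18, limma adjusted p = 0.000309), which was called, and -0.97 in adjacent-labelled liver (adjusted p = 0.000706), which was not. Probe set 1416632_at reversed that order, with -0.95 in tumor and -1.17 in adjacent-labelled liver. The tumor call was lost without wild-type replicate 1 (-0.996) or replicate 2 (-0.93).

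Fasn, the synthase itself, read 12.44, 12.55 and 11.80 in the wild-type pieces, 11.69, 11.47 and 11.63 in the adjacent-labelled pieces and 11.48, 11.44 and 11.50 in tumor. The wild-type range of 0.75 was wider than the gap of 0.11 that separates its lowest piece from the others. Tumor was lower by a log2 difference of -0.79 (SE 0.16, limma adjusted p = 0.00142) and adjacent-labelled liver by -0.67 (adjusted p = 0.0042), both under the 2-fold limit. Without wild-type replicate 3 the tumor difference was -1.02, which was then called.

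The transcription factors differed less. Srebf1, on 1 probe set that does not separate its isoforms, read 11.24, 11.24 and 10.96 in the wild-type pieces, 10.83, 10.91 and 10.98 in the adjacent-labelled pieces and 10.82, 10.86 and 10.69 in tumor. Adjacent-labelled replicate 3 overlapped wild type, and the tumor pieces lay below it. The log2 difference was -0.35 in tumor (SE 0.09, limma adjusted p = 0.00465) and -0.24 in adjacent-labelled liver (adjusted p = 0.0345), both under the 2-fold limit. Mlxipl read 11.89, 12.03 and 11.76 in the wild-type pieces, 11.87, 11.94 and 11.97 in the adjacent-labelled pieces and 11.46, 11.25 and 11.43 in tumor. The adjacent-labelled pieces fell within the wild-type range (0.04, adjusted p = 0.724), while all tumor pieces lay below it (-0.51, SE 0.08, adjusted p = 0.000304), under the 2-fold limit.

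Gpam, the mitochondrial acyltransferase that opens glycerolipid synthesis, showed no difference beyond the spread. It read 12.08, 12.13 and 11.75 in the wild-type pieces, 11.95, 11.77 and 11.91 in the adjacent-labelled pieces and 11.86, 11.90 and 12.04 in tumor, and all groups overlapped. The 95% confidence interval ran from -0.28 to 0.17 for tumor and from -0.33 to 0.12 for adjacent-labelled liver (limma adjusted p = 0.666 and 0.374). Its second probe set, 1425834_a_at, gave -0.10 and -0.27.

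**Figure D2:**
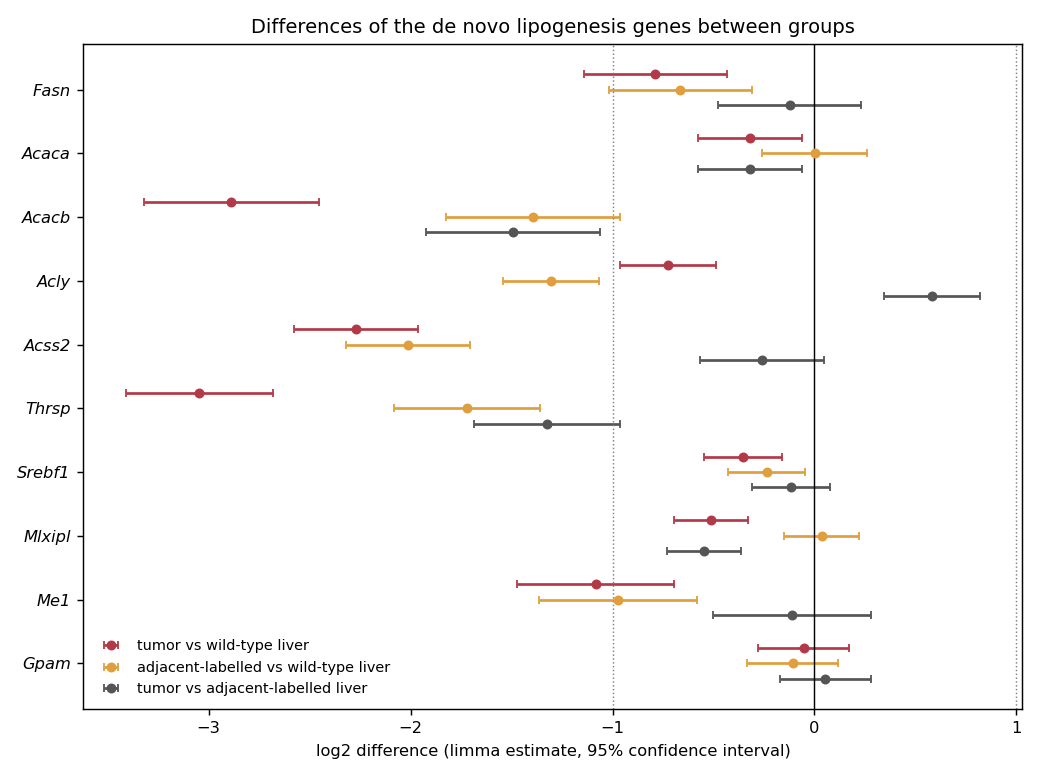
Log2 differences of the 10 genes with 95% confidence intervals from limma (x axis; dotted lines mark 2-fold) for tumor against wild-type liver, adjacent-labelled against wild-type liver and tumor against adjacent-labelled liver. Thrsp, Acacb and Acss2 lie beyond 2-fold in both comparisons with wild-type liver, Acly has its larger difference in adjacent-labelled liver, and only Acly is higher in tumor than in adjacent-labelled liver by more than its interval.

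Tumor against adjacent-labelled liver compares pieces of the same animal that share the label of severe steatosis. Thrsp and Acacb fell further in the tumor, by log2 differences of -1.33 (SE 0.16, limma adjusted p = 8.05e-05) and -1.49 (SE 0.19, adjusted p = 0.000118). These are 2 of 10 genes called lower, where 2.94% of all genes were, and 0 called higher, where 2.1% were. With the mean of each gene's probe sets neither was called (Thrsp -0.88, Acacb -0.77). Mlxipl was lower by -0.55 (adjusted p = 0.000333) and Acaca by -0.32 (adjusted p = 0.0454), while Acly was higher in the tumor by 0.58 (SE 0.11, adjusted p = 0.00119), all under the 2-fold limit. With no limit on size, 4 genes were lower (25.1% of all genes) and 1 higher, and groups did not overlap for the same counts (28.5% of all genes lower). The share of all genes that were higher by these rules was not computed, so the 1 higher gene has no share beside it. For Fasn, Acss2, Srebf1, Me1 and Gpam the groups overlapped, with adjusted p from 0.159 to 0.713. The median of the 10 was -0.19, against -0.01 for all genes.

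Set by the label of steatosis alone, the mean of the adjacent-labelled and tumor groups was compared with wild-type liver, which uses the same arrays as the comparisons above and adds no new evidence. Thrsp (-2.38), Acacb (-2.14), Acss2 (-2.14), Me1 (-1.03) and Acly (-1.02) were called lower, 5 of 10 and 0 higher, where 3.68% of all genes were called lower and 7.88% higher. The count fell to 3 without wild-type replicate 1, wild-type replicate 2 or adjacent-labelled replicate 2, when Acly (-0.95, -0.95 and -0.999) and Me1 (-0.94, -0.87 and -0.99) were under the limit. Fasn was at -0.73, Srebf1 at -0.30, Mlxipl at -0.24, Acaca at -0.16 and Gpam at -0.08. The 5 called genes, Thrsp, Acacb, Acss2, Me1 and Acly, were thus lower under the label of severe steatosis than under that of mild. Each label rests on 1 animal. No fat content was measured on these arrays.

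The wild-type pieces were themselves not alike for this route. Replicate 3 was the lowest of its group in 10 of 10 genes and replicate 2 the highest in 10 of 10, where 38.8% of all genes had replicate 3 lowest and 28.2% had replicate 2 highest. Replicate 3 lay below the mean of the other 2 pieces by a median of -0.40 over the 10 genes and -0.01 over all genes, and 1.39% of all genes deviated there by more than 0.5. Adjacent-labelled replicate 2 stood further apart over all genes, with 2.74% deviating by more than 0.5 and 43.5% at their lowest in the group, and was lowest in 7 of the 10 genes, by a median of -0.18. The deviation of wild-type replicate 3 was -0.74 in Me1, -0.72 in Acacb, -0.69 in Fasn and -0.65 in Thrsp, and smallest in Mlxipl at -0.20. Beside it, 12 of 13 genes of carbon and NADPH supply and 11 of 12 lipid droplet genes were also lowest in replicate 3. So were 14 of 18 acyl chain and glycerolipid enzymes. The same held for 6 of 17 lipogenic regulators (8 were highest there), 1 of 8 insulin pathway genes and 1 of 7 hepatocyte markers. Stellate cell markers deviated by a median of -0.50, with 5 of 7 lowest in that piece. The 3′ minus 5′ difference of Actb, a sign of RNA quality, was 0.83 in replicate 3 and 0.88 and 0.86 in the others, and that of Gapdh 0.28 against 0.29 and 0.26. The middle 18S ribosomal RNA probe set read 8.31 in replicate 3 and 6.92 and 8.02 in the others. The part of these measures in the result was not tested. Without replicate 3, 5 genes were called lower in tumor and 5 in adjacent-labelled liver.

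**Figure D3:**
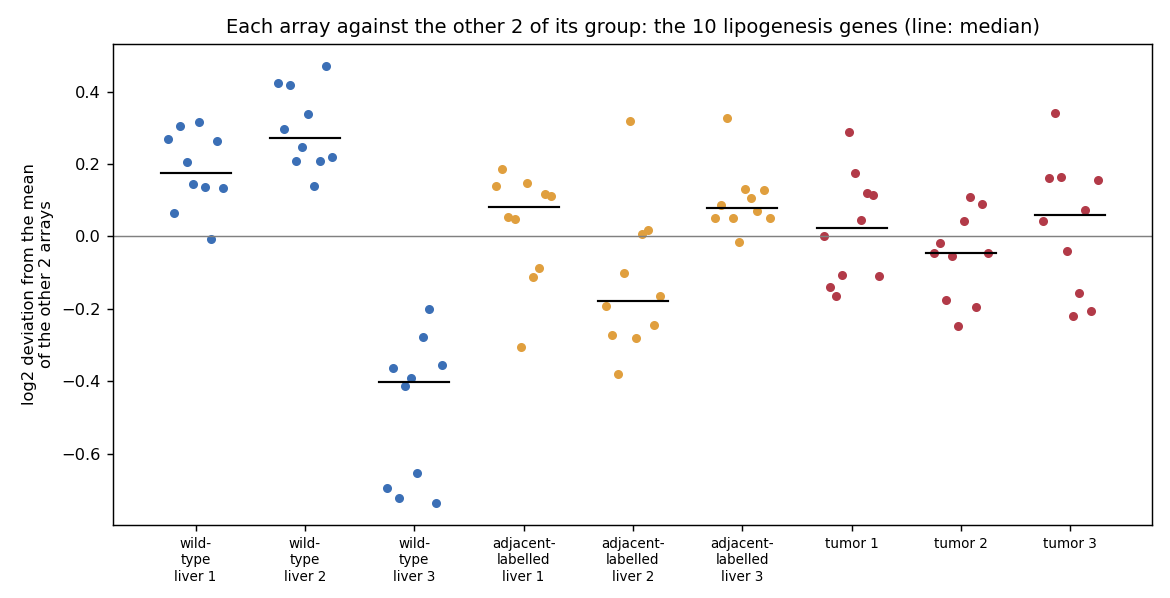
Deviation of each array from the mean of the other 2 arrays of its group (y axis, log2) for the 10 genes, 1 point per gene, with the median as a line, in arrays ordered by group and replicate (x axis). All 10 points of wild-type replicate 3 lie below 0, with a median of -0.40, while the medians of the adjacent-labelled and tumor arrays lie between -0.18 and 0.08.

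Other genes of the route were taken from 5 lists, described by their counts and without a test of the list. For the counts of each list, the shares of all genes tested were 4.59% called lower and 8.41% higher in tumor. In adjacent-labelled liver they were 3.22% lower and 8.29% higher. Of 17 tested regulators, 0 rose and 1 fell in tumor, and 1 rose and 2 fell in adjacent-labelled liver, with list medians of -0.33 and -0.37. Mlycd, which breaks down malonyl-CoA, fell in tumor (log2 difference -1.11). In adjacent-labelled liver Insig1, which holds SREBP in the endoplasmic reticulum and is itself an SREBP target, fell (-1.14), and so did Scap, the escort of SREBP (-1.02). Scap was at 0.08 in tumor and rose between adjacent-labelled liver and tumor by 1.10, or by 0.86 and no longer called with the mean of probe sets. The call on Scap in adjacent-labelled liver was lost in 5 alternatives, at -0.75 to -0.998. Prkaa1, a catalytic subunit of AMP-activated kinase, rose by 1.26 in adjacent-labelled liver from a wild-type mean of 4.61, which is below the 40th percentile of the arrays (5.16 to 5.26). Its size there depends on background.

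Of 8 genes of the insulin pathway, 0 were called in any comparison by limma. At an unadjusted p under 0.05, 5 were lower and 2 higher in tumor and 5 lower and 1 higher in adjacent-labelled liver. The same counts passed a limma adjusted p under 0.05, so the 2-fold limit alone kept these genes from being called. Of all genes tested, 30.2% in tumor and 28.9% in adjacent-labelled liver were lower at that adjusted p. The share of all genes that were higher at it was not computed. The nearest to the limit in tumor was Foxo1, a factor restrained by insulin, at -0.99, and in adjacent-labelled liver its relative Foxo3, at -0.96. Both were chosen after their values were seen. Cyclic loess normalization brought 2 of the 8 genes past the limit.

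Carbon and NADPH supply did not move one way. Of 13 tested genes, 1 rose and 3 fell in tumor, and 1 rose and 0 fell in adjacent-labelled liver, with medians of -0.71 and -0.23. Pgd, an NADPH-making enzyme of the pentose phosphate route, rose by 1.92 in tumor and 1.16 in adjacent-labelled liver, the direction opposite to the NADPH enzyme Me1. The hepatocyte glucose transporter Slc2a2 fell in tumor (-2.94), as did the fructose kinase Khk (-1.35) and the liver pyruvate kinase Pklr (-1.23). In adjacent-labelled liver these 3 were at -0.34, -0.23 and -0.28, with adjusted p from 0.0538 to 0.197. Between tumor and adjacent-labelled liver, Slc2a2 (-2.61), Gckr (-1.12) and Khk (-1.12) fell.

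Downstream of the route, 2 of 18 tested acyl chain and glycerolipid enzymes rose and 4 fell in tumor, and 2 rose and 5 fell in adjacent-labelled liver. The desaturase Scd2 rose by 5.53 and 5.46 from a wild-type mean of 6.26. Scd1, the desaturase predominant in normal adult liver and named here after its values were seen, was at -0.40 and -0.0008. Its means were 14.02 in wild-type and in adjacent-labelled liver and 13.62 in tumor, beside 14.45 for Alb in wild-type liver. Whether differences shrink at such high levels was not tested. Lpin1, the phosphatidate phosphatase, fell in tumor (-2.17) and in adjacent-labelled liver (-3.24), and was higher in tumor than in adjacent-labelled liver by 1.07, a call lost without tumor replicate 3 (0.94), without adjacent-labelled replicate 2 (0.999) or with the mean of probe sets (0.90). Like Acly, Lpin1 was thus lowest in adjacent-labelled liver. Mogat1, an acyltransferase that makes diacylglycerol, fell in both (-1.66 and -1.75). The elongase Elovl6, which lengthens the palmitate made by Fasn and was chosen after its values were seen, fell in both (-1.27 and -1.33). The microsomal glycerol-phosphate acyltransferases parted, with Gpat4 at -1.29 in tumor and Gpat3 at 1.89 in adjacent-labelled liver, both called, beside the level values of their mitochondrial relative Gpam. Gpat2 (-1.25) and Elovl5 (-1.41), chosen after their values were seen, fell in adjacent-labelled liver, where the mean of Gpat2, 5.12, was below the 40th percentile and the size of its difference depends on background. The lipase-like Pnpla3 rose in tumor by 1.63.

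Lipid droplet genes, which coat or remodel stored triglyceride, split in direction: 4 of 12 rose and 4 fell in tumor, and 1 rose and 3 fell in adjacent-labelled liver, with medians of 0.09 and -0.02. Plin3 rose by 1.27 in tumor and 1.51 in adjacent-labelled liver, and Abhd5, the activator of adipose triglyceride lipase, by 1.42 in tumor, or by 0.63 and no longer called with the mean of its probe sets. Plin5 fell in tumor (-1.85), Plin4 in tumor and adjacent-labelled liver (-2.31 and -1.13), and Cidea in both (-2.73 and -4.33). Without wild-type replicate 1 or adjacent-labelled replicate 2, Plin4 was at -0.996 or -0.99 in adjacent-labelled liver and not called. Cidec rose in tumor by 1.55 and fell in adjacent-labelled liver (-1.51). The adjacent-labelled means of Cidea, 4.92, and Cidec, 4.94, were below the 40th percentile, so the sizes of these differences depend on background. Hilpda (1.07) and G0s2 (-1.01), named because they complete the counts in tumor, were chosen after their values were seen. Plin2, the common droplet coat of hepatocytes and likewise chosen afterwards, was higher by 0.73 and 0.28, under the 2-fold limit. Beside the lower Fasn, Thrsp and Acacb, the droplet list as a whole thus did not move one way.

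**Figure D4:**
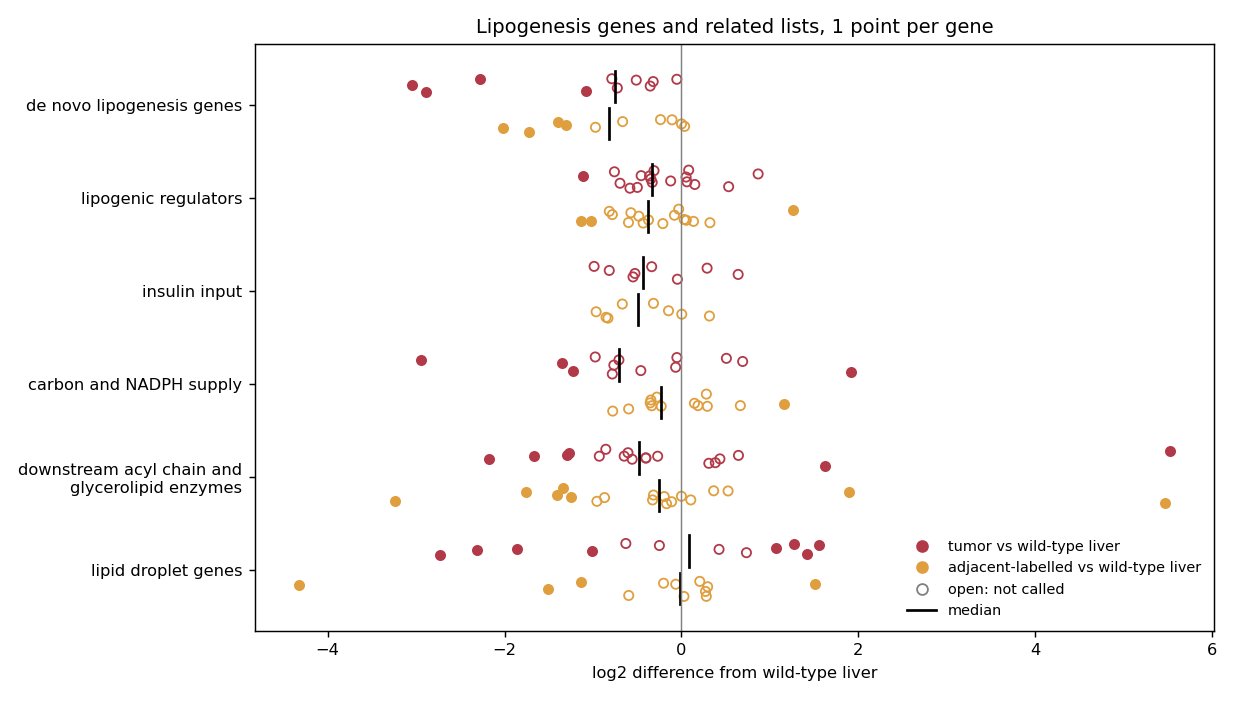
Log2 difference from wild-type liver (x axis) of each tested gene, 1 point per gene, for the 10 lipogenesis genes and the 5 related lists (y axis), in tumor (red) and adjacent-labelled liver (orange), with filled points for called genes, open points for the others and the median as a bar. The lipogenesis genes have medians of -0.76 and -0.82 and no called gene above 0, whereas the droplet and downstream lists hold called genes on both sides.

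Markers of other cells moved beside these results. The mean log2 level of the 7 hepatocyte markers was 13.8 to 13.9 in wild-type liver, 13.4 to 13.5 in adjacent-labelled liver and 13.2 to 13.3 in tumor, with the members parted as given above. That of the 7 stellate markers was 7.66 to 8.12, 8.70 to 8.97 and 8.65 to 9.07 in the same order. That of the 7 macrophage markers was 8.51 to 8.54, 8.79 to 9.15 and 9.01 to 9.25. Members of both lists parted. Against wild-type liver, 3 stellate markers were called higher in each tissue and 1, Lrat, lower (-1.11 in tumor and -1.02 in adjacent-labelled liver). Of the macrophage markers, 2 were called higher in each tissue, and 1, Marco, lower in adjacent-labelled liver (-1.11). The 6 adipocyte markers with a symbol of their own were at 6.05 to 6.31, 6.04 to 6.22 and 6.58 to 6.70 in the same order. While the defining ones Adipoq and Lep never rose above the 40th percentile, Fabp4 rose by 1.24 in tumor and 1.495 in adjacent-labelled liver. Cidec was called higher in tumor (1.55) and lower in adjacent-labelled liver (-1.51). Retn was at -0.30 in tumor and -0.31 in adjacent-labelled liver and Lipe at 0.09 and -0.07, and neither was called. Macrophages and endothelial cells also express Fabp4. The 6 cholangiocyte markers were at 6.03 to 6.18 in wild-type liver, 6.99 to 7.21 in adjacent-labelled liver and 6.79 to 7.14 in tumor, and Cldn7 was the 1 called among them, at 5.31 in adjacent-labelled liver and 3.81 in tumor. The 3 B cell markers were at 5.45 to 5.72 in wild-type liver, 5.70 to 6.07 in adjacent-labelled liver and 6.36 to 6.56 in tumor. In the same order, the 6 endothelial markers were at 8.02 to 8.27, 8.22 to 8.44 and 8.27 to 8.61 and the 4 T cell markers at 6.57 to 6.63, 6.63 to 6.87 and 6.67 to 6.73. The Actb 3′ minus 5′ difference was 0.54 to 0.69 in tumor and 0.82 to 0.91 in the other groups. That of Gapdh was 0.26 to 0.29 in wild-type liver, 0.15 to 0.18 in adjacent-labelled liver and 0.20 to 0.23 in tumor, with no overlap. The middle 18S ribosomal RNA probe set read 6.92 to 8.31 in wild-type liver and 6.27 to 6.68 in the other 6 pieces. The part of cell makeup and RNA quality in the lipogenesis results was not tested.

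The likeness of other genes to 4 of the members was measured as the root-mean-square difference between log2 profiles over the 9 arrays, each centred on its own mean. Nearest to Thrsp were Aadat (0.21), Lrit1 (0.21) and Acacb (0.21), of which Lrit1 passed the 40th percentile on 3 arrays only, so that its distance rests largely on background values. Nearest to Fasn were Trim7 (0.098), Cyb5rl (0.14) and Ss18l1 (0.14). Srebf1, with a range of 0.55 over the 9 arrays, was nearest to Gpx5 (0.047), Olfr15 (0.048) and Slfnl1 (0.055). The group means of Olfr15 (5.38 to 5.69) and Slfnl1 (5.29 to 5.66) lay under the array medians and near the 40th percentile. Slfnl1 and Cyb5rl each passed that percentile on 8 arrays. The part of background in these distances was not tested. Mlxipl was nearest to Stat5a (0.074), Egln1 (0.076) and Ndufb8 (0.078). These distances are a description.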

How the data were processed

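Total RNA of 9 liver pieces was hybridised to Affymetrix 3′ arrays of 1 colour, 1 array per piece. The deposited log2 values per probe set come, per the submitters' processing notes, from the authors' use of RMA (Affymetrix Expression Console, version 1.3.1.187). RMA equalises the array distributions, which hides a change that moves most genes one way. Scan dates and detection calls were not used here, and the number of arrays limits the precision. Of 45101 probe sets, 34958 had 1 symbol in the platform annotation. A gene was represented by its probe set with the highest mean over the 9 arrays and tested when it passed an array's 40th percentile on 3 or more arrays. Of the 23 probe sets of the lipogenesis genes, 19 passed that filter and 3 never lay above it. limma 3.58.1 (R 4.3.3) gave the tests (lmFit, eBayes, 1 mean per group, all 9 arrays, 6 residual degrees of freedom) with Benjamini-Hochberg adjustment over the 13888 genes. The values of further probe sets come from a separate limma fit over all 34958. A gene was called at an adjusted p under 0.05 and a log2 difference of at least 1. The step was tested on simulated data. The genes, lists and rules were chosen with earlier results of these data known. Genes named are the 10 members, Sart1, up to 4 called genes of each list and comparison by adjusted p, and the 3 nearest profiles of 4 members, and others are marked. Protein sequences were not used here. Alternatives covered the threshold, the filter, the choice of probe set, normalization, the variance model, the groups in the fit, a replicate block and leaving out each array.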

Additional observations from a re-analysis of the deposited data

How the results depend on the processing

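Over 720 recomputed differences of the 10 genes, 687 kept their direction and side of the call, 16 lost the call, 7 gained it, 10 near 0 changed sign without being called, and 0 called differences reversed. All losses and gains lay in Me1, Acly or the mean of probe sets, except for Fasn, called in tumor without wild-type replicate 3 (-1.02). With the adjusted p alone, 9 of 10 genes passed in tumor and 7 in adjacent-labelled liver, 5 between tumor and adjacent-labelled liver, and 8 by the label of steatosis. The mean of a gene's probe sets left 0 in place of 2 genes called between tumor and adjacent-labelled liver, where Acacb (-0.77, adjusted p = 0.000127) and Thrsp (-0.88) still passed limma's adjusted p. It also ended the adjacent-labelled calls of Acacb (-0.76) and Acly (-0.90). Leaving out 1 array gave 3 to 5 genes called by the label of steatosis. Genes that passed the adjusted p alone in any of the 3 comparisons between groups, as 79.9% of all genes did, numbered 15 of 17 regulators (4 with the size limit, which 17.5% of all genes passed), 13 of 13 in carbon and NADPH supply (5), 18 of 18 downstream (9) and 12 of 12 droplet genes (8). In the insulin list, 0 with the limit became 7 by the adjusted p alone, 1 with the most variable probe set, 2 with cyclic loess and 0 to 1 with an array left out. Same-numbered arrays deviated together at r from -0.11 to 0.14, and differently numbered ones at -0.17 to 0.15. These ranges give no sign that the numbers pair the pieces, but 3 arrays per group are too few to exclude it. A replicate block gave 4, 4, 2 and 5 genes called, as without it. Dim probe sets of Acly and Acacb limit what can be read from them.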

Other observations

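Wild-type replicate 3 differed from the other 2 wild-type pieces in genes beyond the lipogenesis route, which were chosen here after their values were seen and carry no test. The lowest there against the mean of the other pieces, on the log2 scale, were the droplet gene Cidea at -1.70, the fatty acid carrier Fabp5 at -1.64, Esm1 at -1.60, Smoc2 at -1.38, the immunoglobulin gene Ighm at -1.28 and Nuf2 at -1.25. Cidec was at -1.12, the matrix gene Dpt at -1.11 and the phospholipid transfer protein Pltp at -1.05. The highest were the cytochrome P450 gene Cyp2b9 at 1.14, the acute phase gene Orm2 at 1.12, the immediate early gene Nr4a1 at 1.08, the zinc transporter Slc39a4 at 1.02, Obp2a at 1.01 and Noct, a gene of circadian rhythm, at 0.99. Saa2, another acute phase gene, was at 0.88. Replicate 3 was the lowest wild-type piece for Cidea (8.11 against 10.06 and 9.57) and Fabp5 (8.60 against 10.11 and 10.35). Cidea was lower still in the other groups, at 4.92 ± 0.79 in adjacent-labelled liver and 6.52 ± 0.03 in tumor (SD, n = 3), whereas Fabp5 read 10.60 to 12.15 in those 6 pieces, above the wild-type pieces.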
